A study of Mus musculus with 12 samples.

Results

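The Hox genes of the mouse were followed through RNA-seq of the breast cancer line PB3 and its drug-resistant derivatives. The 38 members were matched by symbol among the 55573 genes of each library, and lie in 4 clusters, HoxA on chromosome 6 (10 genes), HoxB on chromosome 11 (10 genes), HoxC on chromosome 15 (9 genes) and HoxD on chromosome 2 (9 genes). ERI-R, PAC-R and VIN-R are PB3 derivatives made resistant to eribulin (also spelled Erubilin in the labels), paclitaxel and vinorelbine with 300, 500 and 800 nM of the drug, and Control is the untreated parental line. Each group has 3 libraries of polyadenylated RNA. The labels speak of resistant clones without saying whether a line is 1 clone, and do not say that the replicates of a group were separate cultures, so p-values measure the spread between these libraries. The labels give no dose per sample.

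Hox genes encode homeodomain transcription factors that set position along the body axis of the embryo. Genes of a cluster are read from 1 strand, genes at the same place in the clusters are called paralogs and carry the same number, and low numbers act towards the head and high numbers towards the tail and the ends of the limbs. The proteins bind DNA with partners of the Pbx, Meis and Pknox families, and the clusters are held silent by Polycomb and kept active by Trithorax proteins, with retinoic acid among the signals that switch on their genes in the embryo. Hox genes of the HoxA, HoxB, HoxC and HoxD clusters are also transcribed in the mammary gland, and Hoxa9, Hoxb9 and Hoxd9 act together in its growth during pregnancy in the mouse.

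Library totals lay between 11141028 and 13454395 expected counts, estimated numbers of read pairs per gene, and 3 counts correspond to 0.223 to 0.269 CPM (counts scaled to the library total) in 1 library. The 12 leukocyte and macrophage markers summed to between 667 and 4045 CPM, with none at 0, in 8 libraries, 2 per group, and to between 19.0 and 142 CPM, with 8 or 9 of the 12 at 0, in ERI-R 3, PAC-R 3, VIN-R 3 and Control 1. Ribosomal protein genes took 16.7% of the counts in ERI-R 3, against 3.84 to 9.01% in the other 11 libraries. The line is labelled as lacking estrogen receptor, progesterone receptor and HER2. Progesterone receptor mRNA (Pgr) stood at 10.1, 6.62 and 1.71 CPM in ERI-R and at 0, 0.246 and 0 CPM in Control, while transcripts of Esr1 and Erbb2, the genes of the other two receptors, were present in every library. The epithelial gene Epcam had 275, 278 and 195 CPM in ERI-R, against 10.5, 7.97 and 4.72 CPM in Control. Among the other mammary epithelial markers, Cdh1, Krt5 and Krt14 were also higher in all ERI-R libraries than in all Control libraries. Krt18 went the other way, at 144.5, 213.3 and 750.2 CPM in ERI-R against 1159, 826.5 and 756.1 CPM in Control, and Krt8 overlapped. In bulk RNA, fewer cells of a type and less RNA per cell cannot be told apart.

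Hox transcripts came mostly from HoxA and, outside ERI-R, from HoxB. Of the 38 genes, 32 had at least 1 count in some library and 16 reached a mean of 1 CPM in at least 1 group: 9 of HoxA, 6 of HoxB, 1 of HoxD and none of HoxC. Hoxb1, Hoxc12, Hoxd1, Hoxd10, Hoxd11 and Hoxd12 were at 0 in all 12 libraries, and a further 10 genes had 10 counts or fewer over all libraries. A mean of 1 CPM or more was reached by 7 genes in ERI-R, 7 in PAC-R, 9 in VIN-R and 13 in Control. The number without a single count in a group was 20 in ERI-R, 12 in PAC-R, 11 in VIN-R and 9 in Control. At 0 counts over 3 libraries, a floor of 3 counts allows up to 0.0887 CPM in ERI-R, against 0.0814 CPM in Control, and such limits cover counting error only.

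**Figure D1:**
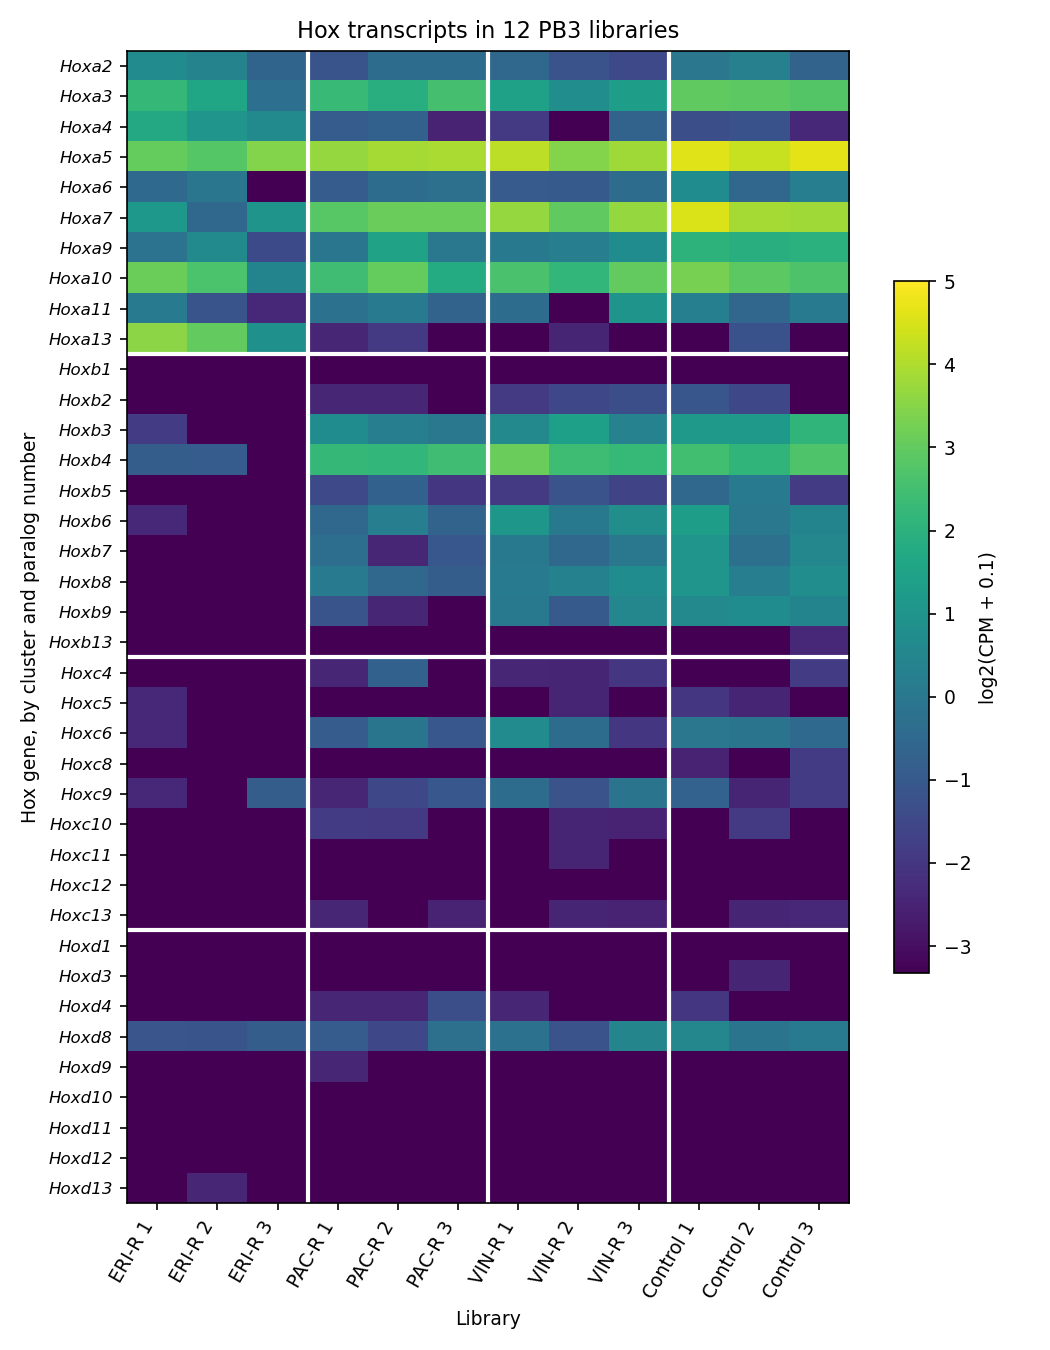
Level of each of the 38 Hox genes as log2(CPM + 0.1), with the genes down the page by cluster and paralog number and the 12 libraries across, ERI-R first, then PAC-R, VIN-R and Control. Within each of the rows of Hoxb3, Hoxb4, Hoxb6 and Hoxb8, the 3 ERI-R libraries are darker than the other 9. Hoxa13 is lit in ERI-R, and most of HoxC and HoxD is at or near 0 in every group.

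The summed level of HoxB was 0.715, 0.436 and 0 CPM in the ERI-R libraries, 9.05, 7.96 and 7.72 CPM in PAC-R, 15.2, 11.5 and 11.9 CPM in VIN-R, and 16.4, 11.9 and 16.4 CPM in Control. ERI-R lay apart from every other group, and all PAC-R libraries lay below all VIN-R and Control libraries, while VIN-R and Control overlapped. The HoxA sum was 41.9, 30.2 and 18.9 CPM in ERI-R, 33.1, 40.6 and 36.0 CPM in PAC-R, 41.9, 26.4 and 41.7 CPM in VIN-R, and 72.7, 55.6 and 58.5 CPM in Control. All 9 resistant libraries were below the lowest Control library, and the 3 resistant lines overlapped one another. HoxC summed to a mean of 0.239 ± 0.226 CPM in ERI-R, 1.15 ± 0.527 CPM in PAC-R and 1.65 ± 0.535 CPM in VIN-R, against 1.37 ± 0.229 CPM in Control (SD, n = 3 each), and HoxD to 0.414 ± 0.0493, 0.664 ± 0.360, 0.815 ± 0.469 and 1.12 ± 0.317 CPM in the same order. Measured per length, as TPM (the deposited transcript level), HoxA made up 97.4 ± 0.608% of the Hox transcripts in ERI-R, 82.4 ± 1.54% in PAC-R, 73.3 ± 2.95% in VIN-R and 80.6 ± 1.52% in Control (SD, n = 3 each). These sums are descriptions without a test.

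**Figure D2:**
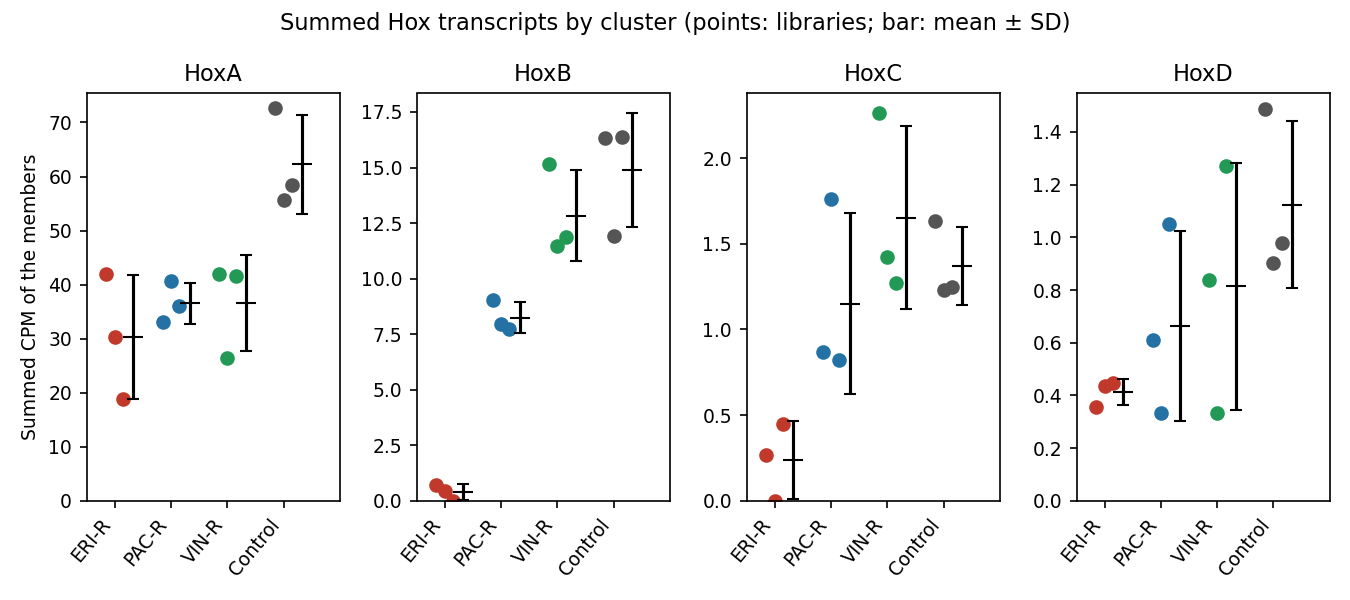
Summed CPM of the members of each cluster, with 1 point per library and a bar for the mean ± SD of 3 libraries, and a separate vertical scale for each cluster. HoxB stands at 0.384 ± 0.360 CPM in ERI-R against 14.9 ± 2.58 CPM in Control, and all 9 resistant libraries lie below the Control libraries for HoxA.

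Across the whole table, 17 of the 38 genes had enough counts to be tested: all 10 of HoxA, 6 of HoxB and Hoxd8. In ERI-R over Control, 12 of the 17 were called at an adjusted p under 0.05 in edgeR's quasi-likelihood test, where 19.2% of the 14226 genes tested were called. Of these, 2 were higher in ERI-R (Hoxa4 and Hoxa13), where the background was 9.51%, and 10 were lower (Hoxa3, Hoxa5, Hoxa7, Hoxa9, Hoxb3, Hoxb4, Hoxb6, Hoxb7, Hoxb8 and Hoxb9), where it was 9.69%. The median log2 fold change of the 17 was -1.56, beside -0.004 over all genes tested. Hoxa4 and Hoxa13 entered the test through their counts in ERI-R and the 6 HoxB genes through the other groups, so these counts describe the tested genes and lend no support of their own. In PAC-R over Control and in VIN-R over Control none of the 17 was called by edgeR, where 0% of all genes were called, and none by DESeq2, which called 24 and 36 genes in all. Without adjustment 4 of the 17 had p under 0.05 in PAC-R and 2 in VIN-R, among 245 and 381 of all genes.

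The most complete change was in HoxB. Hoxb4, known for expanding blood stem cells when it is forced on, had the highest level per length of the cluster. It stood at 0.447, 0.436 and 0 CPM in ERI-R, 4.52, 4.44 and 5.32 CPM in PAC-R, 8.55, 5.27 and 4.71 CPM in VIN-R, and 5.50, 4.27 and 6.41 CPM in Control. All 3 ERI-R libraries lay under the other 9, and PAC-R, VIN-R and Control overlapped. The log2 fold change of ERI-R over Control was -4.28 ± 0.70 (SE, edgeR adjusted p = 0.0019), and over PAC-R and VIN-R it was -4.16 ± 0.69 (adjusted p = 0.0024) and -4.52 ± 0.70 (adjusted p = 0.0014).

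Hoxb3, which patterns the hindbrain and neck, and Hoxb6, a gene of the trunk, kept 2 counts and 1 count in ERI-R. Hoxb3 had 0.179, 0 and 0 CPM in ERI-R, 1.57, 1.09 and 0.899 CPM in PAC-R, 1.43, 2.51 and 1.20 CPM in VIN-R, and 2.16, 2.14 and 4.28 CPM in Control. With 2 counts in ERI-R against 103 in Control, the ratio of Control to ERI-R was 47.2 (95% counting interval 12.8 to 395; edgeR adjusted p = 0.0021). Hoxb6 had 1 count in ERI-R against 58 in Control, a ratio of Control to ERI-R of 53.2 (95% counting interval 9.18 to 2137; edgeR adjusted p = 0.0019). The counts of both genes in ERI-R came from ERI-R 1, without which Hoxb3 was at least 21.1-fold and Hoxb6 at least 11.9-fold lower in ERI-R than in Control. For both genes, all 3 ERI-R libraries were below the other 9. Of the exon bases of Hoxb3, 52.9% are shared with the antisense gene Hoxb3os. The strand setting of the counting is not given in the sources used here, so reads in the shared part may be misassigned.

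Hoxb7, a gene overexpressed in human breast cancers, Hoxb8, which holds myeloid progenitors undifferentiated when it is forced on, and Hoxb9, the gene of the cluster that acts in mammary growth, had no count in any ERI-R library. Hoxb8 had 0.957, 0.586 and 0.450 CPM in PAC-R, 1.01, 1.17 and 1.57 CPM in VIN-R, and 1.93, 1.07 and 1.60 CPM in Control. Taken against 3 counts over the ERI-R group, it was at least 17.4-fold lower in ERI-R than in Control (57 counts; edgeR adjusted p = 0.00087), with bounds of 7.35-fold against PAC-R and 14.2-fold against VIN-R. Hoxb7 was at least 15.3-fold lower in ERI-R than in Control (adjusted p = 0.0034) and Hoxb9 at least 15.9-fold lower (adjusted p = 0.0064). Hoxb5, at 22 counts over Control and 0 in ERI-R, was under the filter and had a bound of 6.73-fold; it was singled out after its values were seen, and without the filter it was called (adjusted p = 0.012). Hoxb2 had 8 counts over Control, and Hoxb13 had 1 count in all 12 libraries.

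The 6 tested HoxB genes stayed called in ERI-R over Control under all alternatives in which they could be tested. Among the 8 libraries with leukocyte markers, where ERI-R 3 is absent, the log2 fold change of Hoxb4 was -3.64 (edgeR adjusted p = 0.0014), and 10 of the 17 Hox genes were called. Among the 4 libraries without leukocyte markers, the HoxB sum was 0 CPM in ERI-R 3, 7.72 CPM in PAC-R 3, 11.9 CPM in VIN-R 3 and 16.4 CPM in Control 1. VIN-R 3 and Control 1 lay between the 2 libraries with leukocyte markers of their own groups. PAC-R 3 lay below both of its group (9.05 and 7.96 CPM), as did ERI-R 3 (0.715 and 0.436 CPM), and ERI-R libraries of both kinds were under 1 CPM.

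Of the tested HoxB genes, only Hoxb4, with residual counts in ERI-R, and Hoxb8, with none, had a RefSeq promoter sequence among those used here. The 250 bases before their RefSeq starts (GRCm38.p6, both on the + strand, chr11:96318017-96318266 and chr11:96281655-96281904) are printed 5′ to 3′. Capitals mark matches, on either strand, to the Pbx-Hox motif TGATNNAT or the Cdx motif TTTATG, which did not overlap each other here.
Hoxb4: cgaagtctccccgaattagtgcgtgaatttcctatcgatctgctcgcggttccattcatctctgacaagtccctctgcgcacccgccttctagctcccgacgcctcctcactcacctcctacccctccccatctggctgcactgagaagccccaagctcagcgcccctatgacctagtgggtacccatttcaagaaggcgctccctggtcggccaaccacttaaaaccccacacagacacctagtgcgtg
Hoxb8: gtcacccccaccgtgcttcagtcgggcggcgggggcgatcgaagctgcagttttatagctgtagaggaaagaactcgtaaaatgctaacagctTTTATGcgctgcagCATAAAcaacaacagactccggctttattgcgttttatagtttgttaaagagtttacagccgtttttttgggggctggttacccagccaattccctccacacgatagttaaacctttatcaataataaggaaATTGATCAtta
Hoxb8 holds TTTATG at positions 94 to 99 and, on the other strand, 108 to 113, and TGATNNAT on the other strand at positions 240 to 247, and Hoxb4 holds neither. Over windows of 300 bases that add the first 50 bases of the transcript, TTTATG was found in 11.85% of all 32851 RefSeq windows and in 5 of the 24 windows of Hox genes, which cover 22 of the 38 genes. TGATNNAT was found in 8.85% of all windows and 4 of the 24, and the retinoic acid response element of 2 AGGTCA copies in the same direction with 5 bases between them in 0.01% of all windows and none of the 24. The matches describe the letters and no binding was measured.

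HoxA moved in both directions in ERI-R. Hoxa13, the gene at the tail end of the cluster, which shapes the hands, feet and urogenital tract, had 11.5, 7.84 and 1.71 CPM in ERI-R, 0.0870, 0.168 and 0 CPM in PAC-R, 0, 0.0836 and 0 CPM in VIN-R, and 0, 0.329 and 0 CPM in Control. All ERI-R libraries lay above the other 9, ERI-R 3 was the lowest of them, and all 4 Control counts came from 1 library, Control 2. The log2 fold change of ERI-R over Control was 5.71 ± 1.26 (SE, edgeR adjusted p = 0.0091). With 238 counts in ERI-R against 3 in PAC-R and 1 in VIN-R, the ratios of ERI-R to these lines were 86.3 (95% counting interval 29.2 to 422; edgeR adjusted p = 0.0082) and 262 (46.6 to 10410; adjusted p = 0.0046). The call against Control was kept without ERI-R 3 and under every other alternative, with log2 fold changes between 5.18 and 9.24.

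Hoxa4, which patterns the neck vertebrae, had 3.13, 1.92 and 1.44 CPM in ERI-R, 0.435, 0.503 and 0.0749 CPM in PAC-R, 0.168, 0 and 0.523 CPM in VIN-R, and 0.297, 0.329 and 0.0891 CPM in Control. The 3 ERI-R libraries were above all others. Hoxa4 shares 16.0% of its exon bases with the antisense gene Gm29430, and reads in the shared part may likewise be misassigned. The log2 fold change was 3.02 ± 0.92 over Control (SE, edgeR adjusted p = 0.043), 3.04 ± 0.92 over VIN-R (adjusted p = 0.042) and 2.50 ± 0.90 over PAC-R (adjusted p = 0.083), so the call was not made against PAC-R. There it was made by DESeq2 (adjusted p = 0.035) and in edgeR with the leukocyte score (adjusted p = 0.031). Against Control the call was lost when any Control library, ERI-R 1 or ERI-R 2 was left out (adjusted p between 0.067 and 0.16, log2 fold changes between 2.65 and 3.32), without the filter (0.052) and with the replicate block (0.065). Against VIN-R it was lost without ERI-R 1, ERI-R 2, VIN-R 1 or VIN-R 2 (edgeR adjusted p between 0.069 and 0.14), without the filter (0.056), with the replicate block (0.074) and in a fit to the 6 libraries compared (0.12).

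Hoxa7, a gene of the trunk, fell most among the HoxA genes. It had 2.06, 0.610 and 1.89 CPM in ERI-R, 7.05, 8.46 and 8.54 CPM in PAC-R, 12.7, 7.69 and 12.6 CPM in VIN-R, and 23.1, 14.6 and 14.0 CPM in Control. The ERI-R libraries were below all others, and all PAC-R and VIN-R libraries were below all Control libraries. The log2 fold change of ERI-R was -3.51 ± 0.49 over Control (SE, edgeR adjusted p = 0.001), -2.47 ± 0.47 over PAC-R (adjusted p = 0.0046) and -2.90 ± 0.48 over VIN-R (adjusted p = 0.0018). Of the exon bases of Hoxa7, 20.4% are shared with antisense Hoxaas3, and reads in the shared part may likewise be misassigned. Hoxaas3 had 28 counts in ERI-R and 0 in Control, at least 10.2-fold higher in ERI-R, and was under the filter.

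Hoxa5, which shapes the lung, had the highest mean level per length of any Hox gene in every group. Within ERI-R, Hoxa10 was above it in ERI-R 1 (9.85 against 8.06 TPM) and ERI-R 2 (6.54 against 6.19 TPM), and Hoxa13 in ERI-R 1 (8.84 TPM). The level of Hoxa5 was 8.13, 6.88 and 11.0 CPM in ERI-R, 12.9, 14.7 and 15.4 CPM in PAC-R, 17.9, 10.8 and 13.8 CPM in VIN-R, and 24.1, 19.7 and 25.0 CPM in Control. All resistant libraries were below all Control libraries, and ERI-R lay below PAC-R and, apart from ERI-R 3 standing above VIN-R 2, below VIN-R. The log2 fold change of ERI-R over Control was -1.40 ± 0.32 (SE, edgeR adjusted p = 0.011), and with ERI-R 3 left out Hoxa5 was also called lower in ERI-R than in PAC-R (-1.14, adjusted p = 0.014) and in VIN-R (-1.13, adjusted p = 0.014), where all 12 libraries gave adjusted p = 0.13 and 0.14.

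Hoxa9, a driver of leukaemia in mouse and human and a gene of mammary growth, had 0.804, 1.48 and 0.269 CPM in ERI-R, 0.870, 2.68 and 0.899 CPM in PAC-R, 0.922, 1.09 and 1.57 CPM in VIN-R, and 4.09, 3.70 and 3.92 CPM in Control. The 3 resistant lines overlapped one another and lay below Control. The log2 fold change was -2.30 ± 0.59 in ERI-R over Control (SE, edgeR adjusted p = 0.019). The call was lost with Control 1, Control 3, ERI-R 1 or ERI-R 3 left out (adjusted p between 0.051 and 0.067). It was also lost in the 8 libraries with leukocyte markers (edgeR adjusted p = 0.069) and in a fit to the 6 libraries compared (0.054). Hoxa3, which forms the thymus and parathyroid, had 4.56, 2.88 and 0.718 CPM in ERI-R, 4.87, 3.69 and 5.77 CPM in PAC-R, 2.60, 1.59 and 2.39 CPM in VIN-R, and 7.73, 7.34 and 6.68 CPM in Control. Its log2 fold change of -1.56 ± 0.49 in ERI-R over Control (SE, edgeR adjusted p = 0.047) was lost under 10 of 15 alternatives, among them leaving out any library of the comparison other than ERI-R 1, and it was -1.09 without ERI-R 3 (adjusted p = 0.064) and -0.995 in the 8 libraries with leukocyte markers (adjusted p = 0.11). Hoxa3 shares 27.1% of its exon bases with other genes, some of them antisense.

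Hoxa10, a gene of the uterus and the lumbar spine, was not called and overlapped between all groups, at 8.58, 6.19 and 1.26 CPM in ERI-R, 5.31, 8.04 and 3.37 CPM in PAC-R, 5.95, 4.43 and 7.92 CPM in VIN-R, and 9.81, 7.31 and 6.23 CPM in Control. Hoxa2, the gene of the second branchial arch, averaged 1.09 ± 0.503 CPM in ERI-R, against 0.845 ± 0.296 CPM in Control, and Hoxa6, a gene of the trunk, 0.499 ± 0.449 CPM in ERI-R, against 1.07 ± 0.493 CPM in Control (SD, n = 3 each). Neither was called in any comparison, and nor was Hoxa11, a gene of the forearm and uterus. ERI-R 3 had the lowest level among the ERI-R libraries for 8 of the 10 HoxA genes, all but Hoxa5 and Hoxa7, beside its high share of ribosomal protein counts, and the part of that share in these values was not tested.

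**Figure D3:**
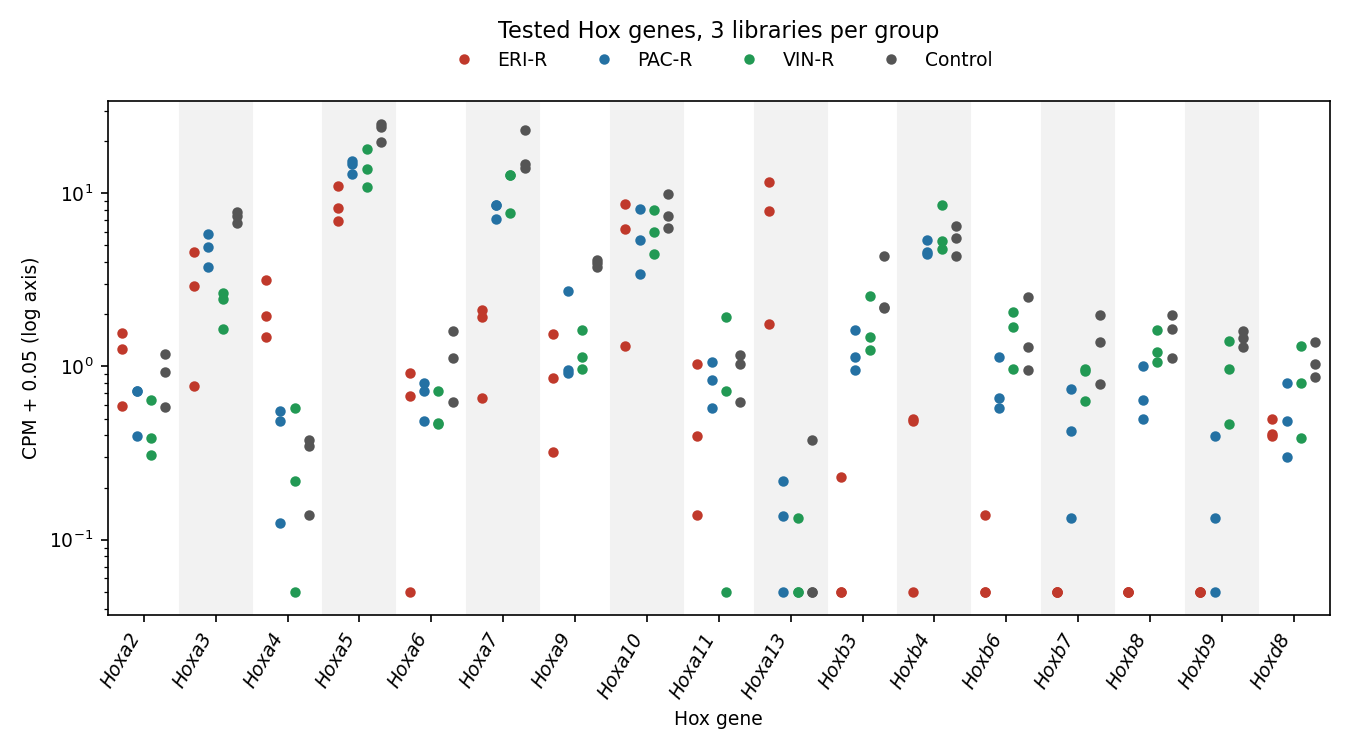
Level of the 17 tested Hox genes as CPM + 0.05 on a log axis, with 1 point per library and the groups ERI-R, PAC-R, VIN-R and Control from left to right within each gene; points on the lowest line are at 0 counts. Hoxb7, Hoxb8 and Hoxb9 sit on that line in all 3 ERI-R libraries, Hoxa4 and Hoxa13 are higher in ERI-R, and Hoxa3, Hoxa5, Hoxa7 and Hoxa9 are lower in all 9 resistant libraries than in Control.

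The order of levels per length differed between the groups. In Control, Hoxa5 led at 21.6 ± 3.12 TPM, followed by Hoxa7 at 15.5 ± 4.69, Hoxa10 at 8.22 ± 2.19, Hoxa3 at 6.38 ± 1.09 and Hoxb4 at 3.60 ± 0.775 TPM (SD, n = 3 each); Hoxa5 and Hoxa7 overlapped, as did Hoxa10 and Hoxa3. In ERI-R, Hoxa5 at 6.77 ± 1.12 TPM was followed by Hoxa10 at 5.72 ± 4.60, Hoxa13 at 5.13 ± 3.85 and Hoxa4 at 2.25 ± 1.39 TPM, each overlapping the next, and Hoxa7 was at 1.12 ± 0.703 TPM. By group mean, PAC-R and VIN-R kept Hoxa5, Hoxa7 and Hoxa10 as the first 3 genes. Hoxa5 stood at 12.5 ± 1.15 and 12.2 ± 2.02 TPM and Hoxa7 at 6.54 ± 0.702 and 8.85 ± 1.93 TPM. Hoxa7 overlapped Hoxa10 in both lines, and Hoxa10 overlapped Hoxa3 in PAC-R and Hoxb4 in VIN-R. Hoxa3 was above Hoxa10 in PAC-R 1 (6.81 against 5.45 TPM) and PAC-R 3 (4.37 against 2.86 TPM). Hoxa5 lay above Hoxa7 within every PAC-R, VIN-R and Control library, and the ranges of the 2 genes over a group's libraries overlapped in VIN-R and Control but not in PAC-R.

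For HoxA, the upstream sequence is shown for 1 gene of each direction, Hoxa5, lower in ERI-R, and Hoxa13, higher in ERI-R. The 250 bases before their RefSeq starts (GRCm38.p6, both on the - strand, chr6:52204588-52204837 and chr6:52260881-52261130) hold none of the 3 motifs and are printed 5′ to 3′.
Hoxa5: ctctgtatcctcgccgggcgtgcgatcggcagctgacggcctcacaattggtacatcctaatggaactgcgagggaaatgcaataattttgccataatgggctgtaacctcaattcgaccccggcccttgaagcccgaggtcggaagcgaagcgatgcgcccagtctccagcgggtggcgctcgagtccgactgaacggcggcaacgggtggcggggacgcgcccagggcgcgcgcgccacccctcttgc
Hoxa13: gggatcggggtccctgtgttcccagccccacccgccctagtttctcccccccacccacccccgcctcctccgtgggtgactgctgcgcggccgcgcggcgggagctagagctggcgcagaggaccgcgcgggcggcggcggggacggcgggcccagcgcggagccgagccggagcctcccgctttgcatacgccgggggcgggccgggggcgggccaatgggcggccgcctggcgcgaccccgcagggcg
The number of CpG dinucleotides is 28 in the Hoxa5 run, 35 in the Hoxa13 run, 14 in the Hoxb4 run and 12 in the Hoxb8 run, and the ratio of observed to expected CpG is 1.11, 0.875, 0.760 and 0.974 in the same order, so the 4 runs do not split by cluster on the ratio. Over windows of 300 bases this ratio had a median of 0.626 in the 24 Hox windows and 0.384 in all RefSeq windows. DNA methylation and chromatin were not measured in these libraries.

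HoxC and HoxD contributed little in any group. Hoxd8, a gene of the trunk and the only HoxD gene tested, had 0.358, 0.349 and 0.449 CPM in ERI-R, 0.435, 0.251 and 0.749 CPM in PAC-R, 0.755, 0.334 and 1.27 CPM in VIN-R, and 1.34, 0.822 and 0.980 CPM in Control. ERI-R and PAC-R lay below Control without overlap, and the log2 fold change of ERI-R over Control was -1.45 ± 0.59 (SE, edgeR adjusted p = 0.12). Among HoxC genes, Hoxc6 had 1 count in ERI-R against 29 in Control, a ratio of Control to ERI-R of 26.6 (95% counting interval 4.41 to 1086), or at least 5.93-fold without ERI-R 1, which holds the 1 count; it was singled out after its values were seen, was under the filter, and was called without it (edgeR adjusted p = 0.019). Hoxc9 averaged 0.179 ± 0.238 CPM in ERI-R, 0.238 ± 0.144 CPM in PAC-R and 0.609 ± 0.250 CPM in VIN-R, against 0.260 ± 0.230 CPM in Control (SD, n = 3 each). The remaining HoxC and HoxD genes stayed under 0.2 CPM on average in every group, so differences among them were not detectable at this depth.

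In PAC-R and VIN-R no Hox gene was called against Control, and the genes that lay apart were all lower. All PAC-R libraries lay below all Control libraries for 9 of the 17 tested genes, Hoxa3, Hoxa5, Hoxa7, Hoxa9, Hoxb3, Hoxb7, Hoxb8, Hoxb9 and Hoxd8, where the share of all tested genes doing so was 5.48%. For VIN-R this held for 4 of the 17, Hoxa3, Hoxa5, Hoxa7 and Hoxa9, where the share was 5.93%. The same 4 genes were lower in all 9 resistant libraries than in all 3 Control libraries, as were 1.03% of all tested genes. No Hox gene lay above Control without overlap in either line, where 2.08% of all genes did in PAC-R and 2.42% in VIN-R. The 3 comparisons share the Control libraries. Hoxb7, Hoxb9 and Hoxd8 entered the test through groups other than PAC-R. These counts therefore describe the tested genes and lend no support of their own.

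The smallest unadjusted p among these were for Hoxa3 in VIN-R and Hoxb9 in PAC-R. Hoxa3 had a log2 fold change of -1.68 ± 0.49 in VIN-R over Control (SE, edgeR unadjusted p = 0.00587, adjusted p = 1). Hoxb9 had 0.348, 0.0838 and 0 CPM in PAC-R and 1.41, 1.56 and 1.25 CPM in Control, with a log2 fold change of -3.16 ± 0.93 (SE, edgeR unadjusted p = 0.00836, adjusted p = 1). In VIN-R, Hoxb9 was at 0.922, 0.418 and 1.35 CPM. PAC-R thus lay below VIN-R for Hoxb9 as well (-2.54 ± 0.93, unadjusted p = 0.0239, adjusted p = 1), and of the 17 genes none was called in PAC-R over VIN-R, where edgeR called 0% of all genes, DESeq2 called 5 genes in all and no Hox gene, and 2 Hox genes among 156 of all genes had an unadjusted p under 0.05.

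ERI-R was also set against the other resistant lines, in comparisons that share its 3 libraries with the one above. Here too, Hoxa4 and Hoxa13 entered the test through ERI-R and the tested HoxB genes through the other groups. The counts that follow describe the tested genes and lend no support of their own. In ERI-R over PAC-R, 7 of the 17 Hox genes were called, where 18.7% of all genes were: Hoxa13 higher (9.19% of all genes), and Hoxa7, Hoxb3, Hoxb4, Hoxb6, Hoxb7 and Hoxb8 lower (9.55% of all genes). In a fit to the 6 libraries compared, 3 were called, and Hoxa7, Hoxb3, Hoxb6 and Hoxb7 had edgeR adjusted p of 0.060, 0.061, 0.051 and 0.13. The Hoxb7 call was also lost in the 8 libraries with leukocyte markers (adjusted p = 0.082). With the replicate number as a block in the fit to 6 libraries, an alternative chosen after seeing the data, 7 were called, with Hoxb7 lost (adjusted p = 0.052) and Hoxa4 gained (adjusted p = 0.021). In ERI-R over VIN-R, 9 were called, where 19.3% of all genes were: Hoxa4 and Hoxa13 higher (9.55% of all genes), and Hoxa7, Hoxb3, Hoxb4, Hoxb6, Hoxb7, Hoxb8 and Hoxb9 lower (9.74% of all genes). Hoxb9, at 5 counts in PAC-R, was not called in ERI-R over PAC-R (edgeR adjusted p = 0.12) and was called with PAC-R 3 left out (adjusted p = 0.047). Against all 9 other libraries at once, ERI-R was higher without overlap for Hoxa4 and Hoxa13, where 12.4% of all genes were, and lower for 6 genes, Hoxa7, Hoxb3, Hoxb4, Hoxb6, Hoxb7 and Hoxb8, where 10.6% of all genes were.

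**Figure D4:**
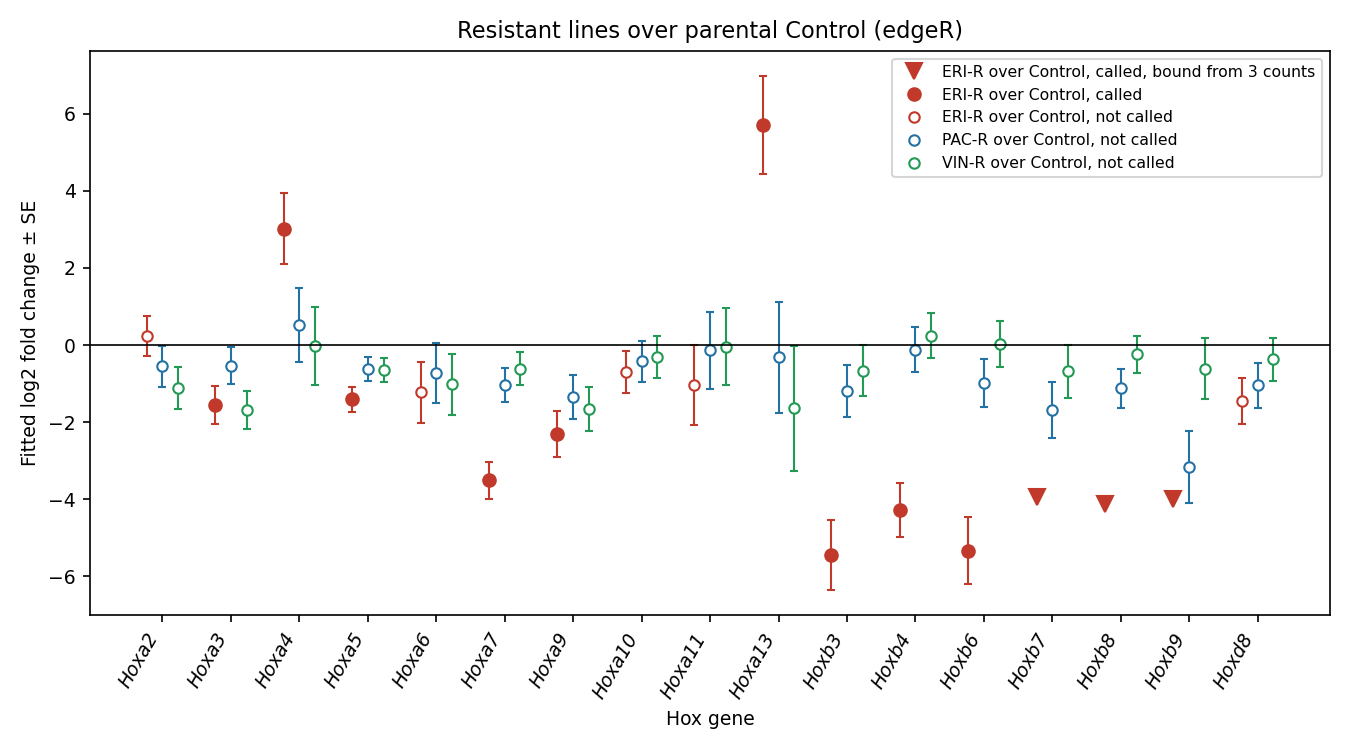
Fitted log2 fold changes ± SE (edgeR) of the 17 tested Hox genes in ERI-R, PAC-R and VIN-R over Control, with filled points for calls and open points for genes not called; triangles are the bounds from 3 counts of Hoxb7, Hoxb8 and Hoxb9, which were at 0 in ERI-R. Hoxa13 stands at 5.71 and Hoxa4 at 3.02 in ERI-R, 10 genes are called lower in ERI-R, and no point is filled in PAC-R or VIN-R.

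Of the 9 genes of the Hox cofactor families, all tested, 2 were called higher and 3 lower in ERI-R over Control, where 9.51% of all genes were called higher and 9.69% lower. Pknox2, which binds DNA with Pbx proteins, had 6.08, 5.32 and 3.32 CPM in ERI-R, against 0, 0.164 and 0.0891 CPM in Control, a ratio of ERI-R to Control of 60.3 (95% counting interval 20.3 to 296; edgeR adjusted p = 0.00095) that is 38.3 without Control 1 and 121 without Control 2. Meis1 and Meis2, which join Hox and Pbx proteins on DNA, were lower: Meis1 had 0.268, 0.871 and 0.0898 CPM in ERI-R, against 7.43, 6.41 and 8.54 CPM in Control (log2 fold change -4.26 ± 0.60, edgeR adjusted p = 0.0011), and Meis2 had 4.65, 3.40 and 1.98 CPM in ERI-R, against 21.1, 20.6 and 26.7 CPM in Control (-2.87 ± 0.28, adjusted p = 0.00035). The third lower gene was Meis3, named here after its values were seen. The median log2 fold change of the 9 genes was -0.03, beside -0.004 over all genes, and none was called in PAC-R or VIN-R over Control.

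Of 12 tested genes among the 17 of the retinoic acid pathway, 1 was called higher and 3 lower in ERI-R over Control, beside 9.51% and 9.69% of all genes tested. Cyp26b1, which degrades retinoic acid, had 7.87, 7.41 and 2.78 CPM in ERI-R, against 0.520, 0.246 and 0.178 CPM in Control (log2 fold change 4.08 ± 0.57, edgeR adjusted p = 0.001). Crabp1, which binds retinoic acid in the cytoplasm, had no count in ERI-R and 10.03, 3.29 and 2.23 CPM in Control, at least 61.2-fold lower in ERI-R (edgeR adjusted p = 0.0039), a bound that is 31.3-fold without Control 1. Aldh1a3, also lower, was named after its values were seen. The ERI-R and Control libraries did not overlap for Cyp26b1 and Crabp1, and the pathway's median log2 fold change was -0.39.

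Of the 31 Polycomb genes, all tested, 3 were called higher and 2 lower in ERI-R over Control, beside 9.51% and 9.69% of all genes tested, and the median log2 fold change was 0.04. Cbx7 and Cbx8, chromobox proteins of Polycomb complex 1, were higher (1.46 ± 0.40, edgeR adjusted p = 0.028, and 1.37 ± 0.33, adjusted p = 0.014). The first call ended when ERI-R 1 or any Control library was left out and the second when Control 2 was. Both ended in a fit to the 6 libraries compared (edgeR adjusted p = 0.056 and 0.068), and that of Cbx7 without the filter (0.063). Pcgf5, of Polycomb complex 1, and Rbbp4, a histone-binding protein of Polycomb complex 2 and other complexes, were lower (-1.78 ± 0.41, adjusted p = 0.012, and -1.29 ± 0.33, adjusted p = 0.019). The Rbbp4 call ended when Control 1, ERI-R 1 or ERI-R 3 was left out. It also ended in the 8 libraries with leukocyte markers (edgeR adjusted p = 0.058) and in the fit to 6 libraries (0.055). Without the filter and with library totals alone it ended as well (0.06 in each). Cbx2, the third higher gene, was named after its values were seen. Of 14 Trithorax and H3K27 demethylase genes, 1 was called, beside 19.2% of all genes. It was Kmt2a, which encodes the methyltransferase that maintains Hox transcription, at 194, 119 and 76.4 CPM in ERI-R, against 326, 245 and 368 CPM in Control (-1.37 ± 0.34, edgeR adjusted p = 0.016). The Kmt2a call ended when Control 1, Control 3 or ERI-R 2 was left out. It also ended in the 8 libraries with leukocyte markers (edgeR adjusted p = 0.084) and in the fit to 6 libraries (0.06).

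**Figure D5:**
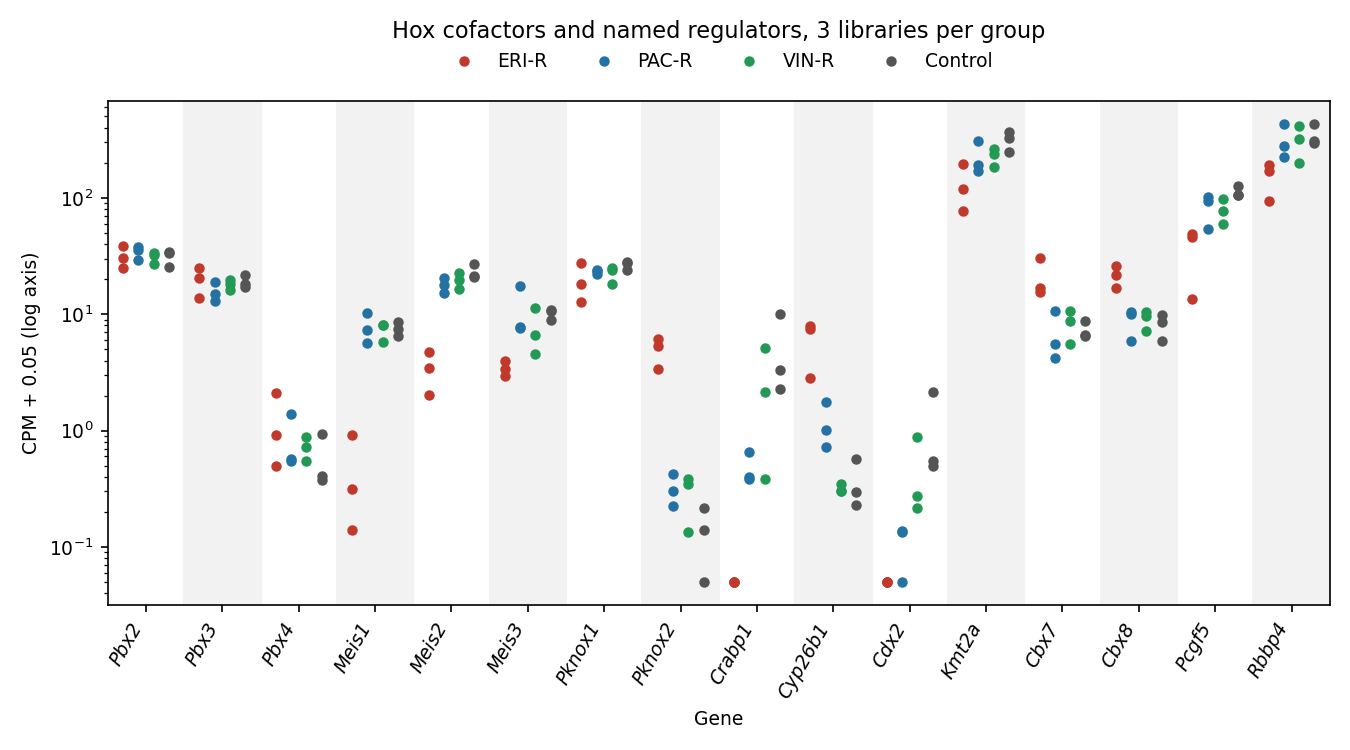
Level of 8 Hox cofactor genes and of named retinoic acid, Cdx, Trithorax and Polycomb genes as CPM + 0.05 on a log axis, with 1 point per library and the groups ERI-R, PAC-R, VIN-R and Control from left to right within each gene. Meis1, Meis2 and Crabp1 are lower and Pknox2 and Cyp26b1 higher in ERI-R than in Control without overlap, and Pbx2, Pbx3 and Pknox1 overlap between ERI-R and Control.

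None of the 6 ParaHox and Cdx genes, relatives of the Hox genes, was tested. Cdx2, a regulator of Hox genes in the embryo, had 0 CPM in all ERI-R libraries, 0.0870, 0.0838 and 0 CPM in PAC-R, 0.838, 0.167 and 0.224 CPM in VIN-R, and 2.08, 0.493 and 0.445 CPM in Control, at least 11.9-fold lower in ERI-R than in Control, or 5.30-fold without Control 1, with no test. Of the 17 genes that flank the clusters, 12 were tested and 1 was called in ERI-R over Control (beside 19.2% of all genes), Calcoco1 next to HoxC (-1.54 ± 0.26, edgeR adjusted p = 0.0022), and the median log2 fold change was 0.15. Of 17 matched noncoding RNAs of the clusters, 2 were tested and none called, Hotairm1 (edgeR adjusted p = 0.72) and Hoxaas2 (adjusted p = 0.78). Hottip, transcribed beside Hoxa13, had 5 counts in ERI-R (0.0894, 0.349 and 0 CPM) and 0 in every other group. Its bound over Control was 1.82-fold, or 0.550-fold without ERI-R 2, so no rise is established. Hotair, beside HoxC, was at 0 in all 12 libraries.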

How the data were processed

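Polyadenylated RNA of 12 mouse PB3 libraries (200 ng of input, Kapa mRNA kit, paired ends of 76 bases, per the labels' protocols) was analysed. The submitters' processing notes name RSEM 1.3.2, STAR 2.7.2b, cutadapt 2.4 and bcl2fastq 2.20.0.422 and the build GRCm38, but no roles. The sources used here do not give the annotation or the strand setting. The authors' deposited tables hold, per the file headers, RSEM expected counts and TPM per gene. Expected counts were rounded for testing, which changed 15.3% of all values above 0 and 4 of 251 Hox values. CPM used library totals, and TPM was used to compare levels between genes.

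Of 55573 genes, 55394 had a symbol, and 183 of 185 list symbols matched. Positions are from GENCODE M21 and promoter sequences from RefSeq (GRCm38.p6). The 14226 genes kept by filterByExpr on the groups were scaled by TMM and fitted with all 12 libraries in edgeR 4.0.16 (R 4.3.3, glmQLFit robust, glmQLFTest, 8 residual degrees of freedom), with calls at 0.05 after Benjamini-Hochberg adjustment over all of them. The procedure was run on simulated counts with known changes. A pass was required only at a spread lower than that of these data, so the pass does not carry over to them. The SE of a log2 fold change is its size divided by the square root of F. Folds against groups at 0 are bounds that set the group to 3 counts in all, and for 1 to 3 counts in a group the pooled CPM ratio and its 95% counting interval are given. The fitted log2 fold change of such a gene depends on the prior count.

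Hox genes called in some comparison or with a mean of 1 CPM in some group were named, and of other lists the 2 largest called rises and falls per comparison with Control. Members and lists were chosen with earlier results of these data known. Alternatives were DESeq2 1.42.0, its size factors or library totals in edgeR, other filters, the 6 libraries of a comparison alone, a replicate block, a leukocyte score or the 8 libraries with Ptprc above 10 CPM, and leaving out each library. No label says that replicate numbers pair libraries. Deviations of same-numbered libraries from their group means correlated between 0.607 and 0.764 for ERI-R and PAC-R. The range was 0.221 to 0.917 for PAC-R and VIN-R, and 0.0829 to 0.671 for ERI-R and VIN-R. In pairs with Control it went down to -0.863. Differently numbered libraries correlated up to 0.915, and PAC-R 1 with VIN-R 2 at 0.865, so these values cannot show pairing. No main test took libraries as paired. The replicate block was an alternative in the fit of all 12 libraries. In fits to the 6 libraries compared, it was used only for ERI-R with PAC-R and PAC-R with VIN-R, without pairing being established. Values of some list genes are not reported here.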

Additional observations from a re-analysis of the deposited data

How the results depend on the processing

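No log2 fold change of a named gene that was followed changed sign under any alternative: 711 kept their side of the threshold, 64 lost a call and 10 gained one. In ERI-R over Control, leaving out 1 library left 9 to 10 Hox genes called, against 12 with all libraries. In ERI-R over PAC-R it left 7 to 8, against 7, and in ERI-R over VIN-R 8 to 10, against 9. Where an arm has 2 libraries, edgeR's pooled spread is assumed for them. With only the 6 libraries compared, 3 Hox genes were called in ERI-R over PAC-R, against 7 in the joint fit; fewer libraries enter that fit. Hoxa5 lost its call against Control in such a fit (adjusted p = 0.072). With the replicate number as a block, 11, 7 and 8 Hox genes were called in ERI-R over Control, PAC-R and VIN-R, and 0 in the other comparisons, and Hoxa4 lost its call over Control (adjusted p = 0.065). In ERI-R over PAC-R and PAC-R over VIN-R, the joint fit with the block changed no call of a Hox gene. Without ERI-R 2 the bounds of Hoxb7, Hoxb8 and Hoxb9 in ERI-R over Control were 10.1, 11.5 and 10.5-fold, that of Crabp1 40.4-fold and that of Cdx2 7.88-fold, since fewer reads then stand behind the 3 counts, and likewise that of Hoxaas3 was 6.46-fold without Control 1. The leukocyte score added Hoxd8 in ERI-R over Control (adjusted p = 0.028).

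Counts over all genes moved by more than 1.5 times in some settings. The fits to 6 libraries called 1762 genes in ERI-R over Control, 1275 over PAC-R and 1512 over VIN-R, and the leukocyte score 4487, 4113 and 4279, against 2732, 2667 and 2744. The score gave 3 in PAC-R over Control and 8 in VIN-R over Control, and DESeq2 24 and 36, with 5 in PAC-R over VIN-R, against 0 in each. At the depth of these libraries, genes of about 1 CPM or less rest on few counts. The cause of these changes was not tested.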
